A study of Rattus norvegicus with 102 samples.

Results

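Cdh1 and Cyp2a3 were the genes with the largest mean rise from young to aged rats in the dentate gyrus (DG) of the rat hippocampus. They were chosen by that measured rise, so their DG values, and the differences between DG and the other subfields, are given as a description without a test. They are 2 of the 26284 genes listed for the Illumina sequencing, each found by its symbol and carried by 1 row. Cdh1 is ENSRNOG00000020151 on chromosome 19 and Cyp2a3 is ENSRNOG00000028900 on chromosome 1 of the rn5 genome.

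The animals were 34 untreated male Fischer 344 rats. The age of the 10 young rats was 5 to 6 months, and that of the aged rats 17 to 22 months. From their memory score in a water maze the aged rats had been classed as aged unimpaired (AU, n = 12) or aged impaired (AI, n = 12). CA1, CA3 and DG were dissected from the hippocampus, from a dorsal slice by the submitters' design text but along the length of the hippocampus by the study's methods. From this tissue, 1 library per rat and subfield was made from polyadenylated RNA for the Illumina and again for the Ion Proton, so that each table held 1 library for every rat and subfield. A further table, which the submitters call WT, covered the same rats and subfields.

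Cdh1 encodes E-cadherin, a calcium-dependent adhesion protein that joins neighboring epithelial cells and is tied to the actin skeleton through catenins. In brain, neurons mostly use N-cadherin (Cdh2), while E-cadherin is known from the arachnoid barrier cells of the leptomeninges. Cyp2a3 encodes a cytochrome P450 monooxygenase of the rat 2A group, best known from olfactory mucosa and lung, where it oxidizes foreign compounds with electrons passed on by P450 reductase (Por).

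Values are normalized reads, which are read counts per gene divided by a size factor for the library. They are not corrected for gene length, so levels are not compared between the genes. Errors are SD, and log2 differences are between means of log2(value + 1), a scale that understates the change of low genes. Genes count as called at a limma p under 0.05 after Benjamini-Hochberg adjustment over all genes tested. In bulk tissue such as this, fewer cells of a type and less RNA per cell cannot be told apart. The rats were kept and tested at separate sites, in Florida and Arizona, with different suppliers. Rat numbers fall into series below 9000 (5 young and 13 aged rats) and from 9000 up (5 young and 11 aged rats), which are also the numbers of rats per site, but the labels tie no rat to a site. Values within each series are given where they bear on a result.

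The depth of Illumina libraries was between 3.25 and 42.8 M reads (median 10.7 M). By marker genes, 11 libraries, from 8 rats, lay nearer to a subfield other than the one on their label. Of these 4 were labelled DG, 3 from AU and 1 from AI rats and 0 from young rats, and 3 of them lay nearest to CA1. Without such libraries the aged minus young log2 difference in DG was 2.65 for Cdh1 and 2.59 for Cyp2a3. The young CA3 library of R9876 and the young CA1 library of R2175 stood apart by markers of the leptomeninges, the inner membranes around the brain. The sum of 20 such markers was 180079 normalized reads in the first, against a CA3 median of 4748, and 50402 in the second, against a CA1 median of 4891. All 20 markers were above the subfield median in both. Age differences in CA1 and CA3, levels over all rats and relations with this sum are also given without them.

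In DG, Cdh1 was low in young rats, with 0, 4.33 and 25.2 normalized reads as the lowest, median and highest library. AU rats had 16.6, 32.8 and 43.2, and AI rats 22.8, 37.0 and 69.6. All 24 aged libraries lay above the young median, and 20 of them above the highest young library, that of R9780. The other 9 young libraries lay below the lowest aged one.

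The DG mean of Cdh1 was 6.60 ± 7.28 (SD, n = 10) in young, 32.6 ± 8.03 (SD, n = 12) in AU and 39.0 ± 14.5 (SD, n = 12) in AI rats. Aged over young, the ratio of means was 5.42 and that of medians 7.59, and the log2 difference was 2.68, or 2.93 without R9780. It was 2.58 for AU and 2.79 for AI rats. The young values rested on few reads, since 3 of the 10 young DG libraries held at most 3 reads of Cdh1.

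Both number series showed the rise of Cdh1 in DG, with aged levels that lay apart by a margin that was not tested. Below 9000, aged rats had 27.7 ± 6.18 (SD, n = 13) against 3.798 ± 1.58 (SD, n = 5) in young rats. From 9000 up, aged rats had 45.3 ± 9.94 (SD, n = 11) against 9.39 ± 9.86 (SD, n = 5). The log2 differences were 2.61 and 2.83.

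Cyp2a3 was likewise near the limit of detection in young DG. The lowest, median and highest values were 0, 3.22 and 30.2 normalized reads in young rats, 8.67, 31.1 and 53.8 in AU rats and 15.3, 24.7 and 56.0 in AI rats. All 24 aged libraries exceeded the young median, but only 9 exceeded the highest young library, so the groups overlapped more than for Cdh1. The overlap came from the young rats R9780 (30.2) and R2221 (22.1), and the other 8 lay below the lowest aged library.

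The DG mean of Cyp2a3 was 7.39 ± 10.2 (SD, n = 10) in young, 29.5 ± 14.2 (SD, n = 12) in AU and 28.8 ± 12.1 (SD, n = 12) in AI rats. The ratio of means, aged over young, was 3.94, that of medians was 8.32, and the log2 difference was 2.49. Without R9780 the young mean was 4.85 ± 6.70 (SD, n = 9) and the log2 difference 2.78. Within the number series the difference was 2.17 below 9000 and 2.87 from 9000 up. At most 3 reads were behind the value in 5 of the 10 young libraries.

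**Figure D1:**
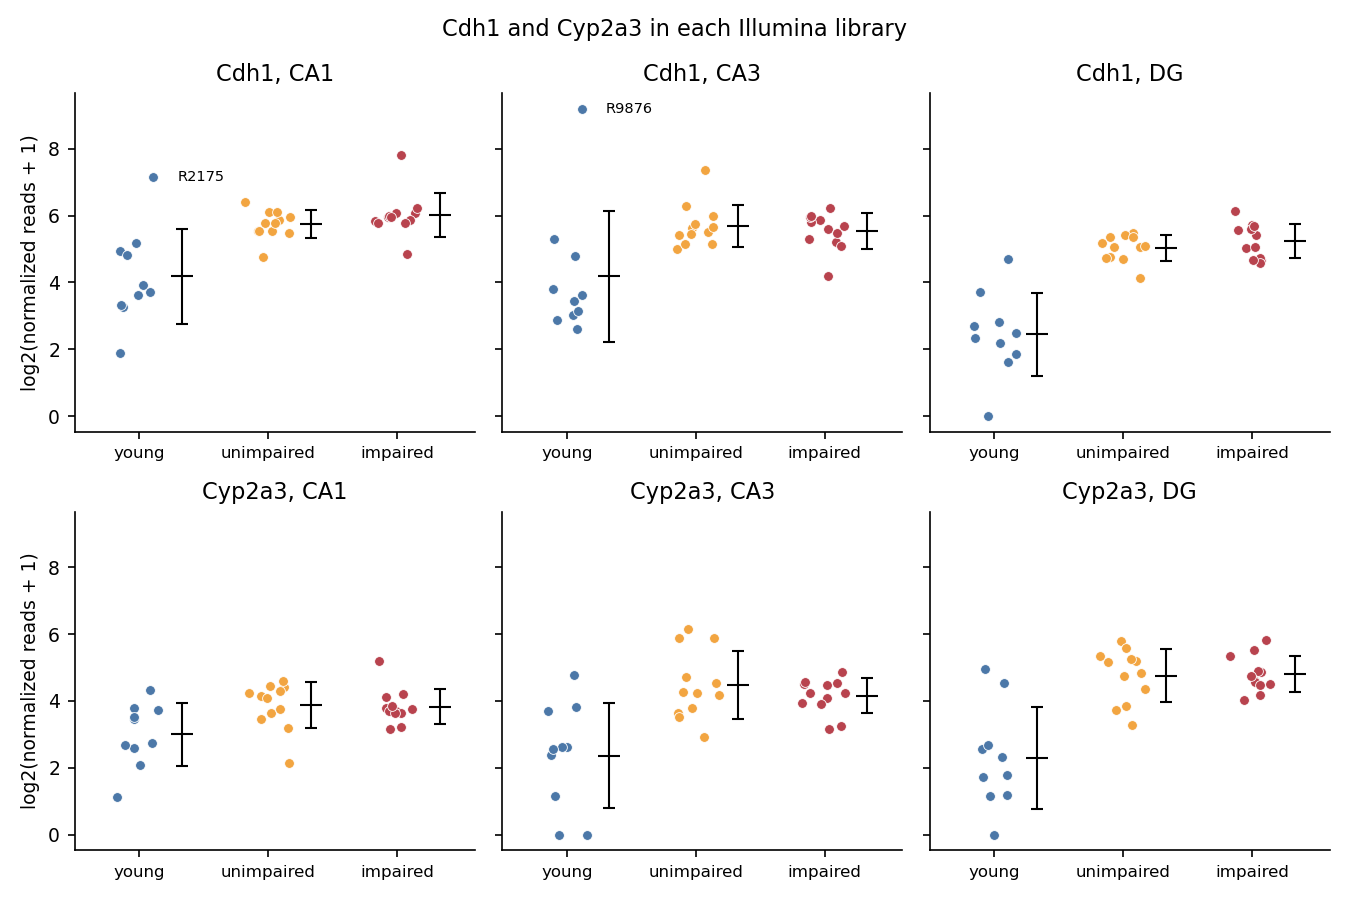
Cdh1 and Cyp2a3 in each Illumina library as log2(normalized reads + 1), by subfield and by young, AU and AI group; points are rats and bars are the mean and SD. In DG, 9 of 10 young libraries lie below every aged library for Cdh1 and 8 of 10 for Cyp2a3, while the young libraries of R2175 in CA1 and R9876 in CA3 reach 141 and 582 normalized reads of Cdh1.

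These values placed Cdh1 first and Cyp2a3 second of 14019 genes in the order of the log2 difference in DG, where 0.292% of all genes were called by limma. The next 4 genes, just outside the choice, were RT1-Db1 (2.42), LOC688090 (2.25), RT1-Ba (2.00) and RT1-Da (1.93), which carry names of the rat MHC class II region or share its list here. RT1-Db1 had 10.3 ± 7.81 (SD, n = 10) normalized reads in young and 69.4 ± 54.8 (SD, n = 24) in aged DG, so its aged libraries spread more widely than those of Cdh1.

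The other sequencing runs, made from RNA of the same rats and therefore no separate animals, also had higher means in both aged groups. In Ion Proton DG libraries Cdh1 had 7.83 ± 7.35 (SD, n = 10) normalized reads in young, 33.4 ± 11.2 (SD, n = 12) in AU and 39.3 ± 11.8 (SD, n = 12) in AI rats, a log2 difference of 2.55 for aged against young. Ion Proton values of Cyp2a3 in DG were 7.15 ± 7.90 (SD, n = 10), 26.9 ± 10.5 (SD, n = 12) and 21.0 ± 9.65 (SD, n = 12), a log2 difference of 2.09. In the WT table the differences were 2.35 for Cdh1 and 1.49 for Cyp2a3. Across the 34 DG libraries, which share their RNA, Pearson's r of log2 values between Illumina and Ion Proton was 0.891 for Cdh1 and 0.838 for Cyp2a3. Group means were not removed here, so the gap between young and aged rats that chose the genes enters these values.

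**Figure D2:**
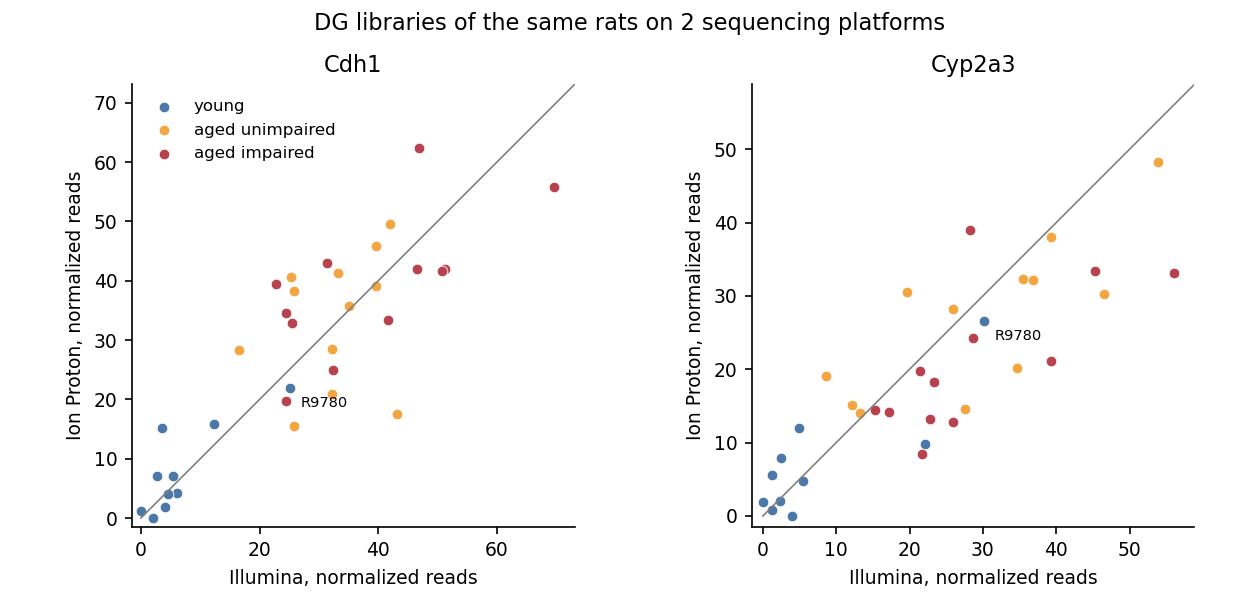
Each DG library's Cdh1 (left) and Cyp2a3 (right) in normalized reads on linear axes in the Illumina (horizontal) and Ion Proton (vertical) tables, colored by group, with a line where both are equal. The young library of R9780 sits with the aged libraries on both instruments, at 25.2 normalized reads of Cdh1 on Illumina.

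R9780, labelled young, carried Illumina levels in the range of aged rats in every subfield. Cdh1 was at 35.2 in its CA1, 38.5 in its CA3 and 25.2 in its DG library, and its Cyp2a3 values were 18.9, 26.5 and 30.2. In the WT table its Cdh1 in DG was 9.73, below the lowest aged library (10.4) and below the highest young one (11.8). Its leptomeningeal sums were 1.04, 0.913 and 0.635 times the subfield medians, and its sum of MHC class II and dendritic cell markers was 2.48 times the median in CA1, 1.09 times in CA3 and 0.893 times in DG. Their part in its values was not tested. The label of R9780 could not be checked from these genes, and the young DG means and the overlap of the groups depend on it.

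The start region of Cyp2a3 is shown beside that of Cyp2a1, its next neighbor of the same group, because the data separate the genes. The RefSeq promoter table (GRCr8) held 1 of the 2 genes described here. Cyp2a1 had at most 2 reads in any Illumina library and 0 in 80 of them, whereas Cyp2a3 had more than 3 reads in all but 12. Shown are the 250 bases before the start of each gene, 5′ to 3′ on the gene strand, at chr1:91299334-91299583 (+) for Cyp2a3 and chr1:91359028-91359277 (+) for Cyp2a1. Capitals mark TATAAA.
Cyp2a3: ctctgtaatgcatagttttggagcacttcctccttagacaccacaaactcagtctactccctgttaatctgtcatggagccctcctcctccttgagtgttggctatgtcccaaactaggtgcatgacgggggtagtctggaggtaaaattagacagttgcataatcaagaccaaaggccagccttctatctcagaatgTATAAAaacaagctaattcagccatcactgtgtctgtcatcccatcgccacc
Cyp2a1: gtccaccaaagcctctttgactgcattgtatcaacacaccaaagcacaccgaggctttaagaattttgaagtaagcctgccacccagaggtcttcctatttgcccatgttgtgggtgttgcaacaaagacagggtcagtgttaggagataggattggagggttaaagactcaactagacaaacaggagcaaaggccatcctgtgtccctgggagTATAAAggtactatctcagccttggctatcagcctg

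TATAAA, the letters of a TATA box, began at base -52 from the start of Cyp2a3 and at base -36 from that of Cyp2a1, once in each window and only on the gene strand. Among 33469 promoters of this length, 8.06% held these letters on the gene strand and 12.9% on either strand. A global alignment of the windows had 138 identical bases, 85 mismatches and 54 gap positions. The match is a description of the letters and not of binding.

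In CA1, which did not choose the genes, Cdh1 was higher in aged than in young rats. The lowest, median and highest values were 2.72, 13.2 and 141 normalized reads in young, 25.8, 54.0 and 83.1 in AU and 28.1, 60.7 and 223 in AI rats. All 24 aged libraries were above the young median and 1 above the highest young library, R2175. Means were 29.1 ± 40.8 (SD, n = 10), 54.3 ± 14.8 (SD, n = 12) and 72.0 ± 48.9 (SD, n = 12).

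The log2 difference of Cdh1 in CA1, aged against young, was 1.70 (SE 0.32, 95% interval 1.04 to 2.35), with a Benjamini-Hochberg adjusted p of 0.00651 by limma. It was among the 0.31% of genes called in CA1, and ranked 5 of 14191 by size. Without R2175 and R9876 the young mean was 16.6 ± 11.1 (SD, n = 9), the difference 2.03 and the adjusted p by limma 9.9e-05, among 0.331% of genes called. Without R2231 as well, the aged library with the largest leptomeningeal sum in CA1, it was 1.94 (limma adjusted p = 2.83e-05). The call was kept in 15 of 20 settings and on leaving out each of 34 rats. With edgeR on all libraries it was 1.08 (adjusted p = 0.332) and in the WT libraries it was 1.10 (limma adjusted p = 0.102), and neither passed. In the Ion Proton table the difference was 1.92 (95% interval 1.14 to 2.70) and missed the threshold by limma (adjusted p = 0.0609), where 0.0197% of genes were called. Without the R2175 library it was 2.26 and passed (adjusted p by limma 0.00234), again among 0.0197% of genes called. Within the number series it was 1.37 below 9000 and missed the threshold (limma adjusted p = 0.628), or 2.02 without R2175 (limma adjusted p = 0.0931), and from 9000 up it was 1.98 and passed (limma adjusted p = 0.034).

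Cyp2a3 in CA1 did not pass. Young rats had 8.5 ± 5.34 (SD, n = 10) normalized reads, with 1.21, 7.87 and 18.9 as lowest, median and highest. AU rats had 14.96 ± 5.85 (SD, n = 12), ranging from 3.47 to 23.3, and AI rats 14.3 ± 7.29 (SD, n = 12), ranging from 7.97 to 35.8. Of the aged libraries 23 of 24 lay above the young median, although the ranges overlapped.

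The log2 difference of Cyp2a3 in CA1 was 0.85 (95% interval 0.31 to 1.39, limma adjusted p = 0.272), without R2175 and R9876 it was 0.64 (limma adjusted p = 0.474), and on the Ion Proton 0.54 (95% interval -0.43 to 1.501). Of the 24 aged CA1 libraries on the Ion Proton, 3 held at most 3 reads of Cyp2a3. The number series differed in the Illumina value. Below 9000, aged rats had 13.5 ± 3.85 (SD, n = 13) against 4.13 ± 1.89 (SD, n = 5), a difference of 1.56 that was called (limma adjusted p = 0.0226), or 1.29 without R2175 (limma adjusted p = 0.0349). From 9000 up, aged rats had 16.0 ± 8.64 (SD, n = 11) against 12.9 ± 3.57 (SD, n = 5), a difference of 0.16. The difference between the series was not tested.

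In CA3, the young mean of Cdh1 and its limma call on Illumina depended on 1 young library. The lowest, median and highest values were 5.16, 10.5 and 582 normalized reads in young, 31.2, 46.3 and 163 in AU and 17.4, 49.0 and 73.6 in AI rats. All 24 aged libraries exceeded the young median and 0 exceeded R9876. The young mean was 70.7 ± 180 (SD, n = 10) with R9876 and 13.9 ± 11.2 (SD, n = 9) without it, beside 56.8 ± 35.6 (SD, n = 12) in AU and 47.9 ± 15.4 (SD, n = 12) in AI rats.

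With all libraries the log2 difference of Cdh1 in CA3 was 1.43 (95% interval 0.59 to 2.28), and it was not called (limma adjusted p = 0.487). With edgeR it turned to -0.39 on all libraries, and was 1.802 without R9876 and R2175. DESeq2 with no library left out gave 1.64, which was called (DESeq2 adjusted p = 0.000251). Its default settings can replace an outlying count, and whether the R9876 count was kept in that fit was not checked. Limma called 0% of 14246 genes in CA3, where 467 had an unadjusted p under 0.05, while edgeR called 8 and DESeq2 called 18. Without R9876 and R2175 the difference was 1.99 and passed (limma adjusted p = 8.06e-05), and Cdh1 was then 1 of 2 genes called (0.0141% of all), the other being Arl11 (0.62), a small GTPase. In the number series below 9000, which does not hold R9876, aged rats had 49.0 ± 12.3 (SD, n = 13) against 7.90 ± 3.03 (SD, n = 5), a difference of 2.498 that passed (limma adjusted p = 5.03e-07). From 9000 up it was 0.33, and 1.31 without R9876, and neither was called. The Ion Proton value was 0.85 (95% interval -0.22 to 1.93), or 1.37 without R9876, and neither was called, where 0.00652% of genes were called with all libraries and 0.00653% without R9876. On the Ion Proton 1 AI library of CA3 held 0 reads of Cdh1. The SD of log2 values in aged CA3 was 1.32 there, against 0.58 on Illumina.

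Cyp2a3 in CA3 missed the threshold, although its aged values lay above most young ones. Young rats had 7.23 ± 8.10 (SD, n = 10) normalized reads, with 0, 5.03 and 26.5 as lowest, median and highest, and the highest was R9780. AU rats had 27.3 ± 21.5 (SD, n = 12), ranging from 6.55 to 69.6, and AI rats 17.8 ± 6.00 (SD, n = 12), ranging from 7.99 to 28.4. All 24 aged libraries lay above the young median.

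The log2 difference of Cyp2a3 in CA3 was 1.95 (95% interval 1.14 to 2.75, limma adjusted p = 0.0832, rank 4 of 14246). Without R9780 it was 2.21 and passed (limma adjusted p = 0.0113), and without R9876 and R2175 it was 1.68 (limma adjusted p = 0.113). R9780 was left out after its value, the highest of the young rats, was seen. A larger difference follows from that choice, and this call is not read as a result. With the number series as a covariate the difference was 1.91 and passed (limma adjusted p = 0.0395). It was 1.60 in the series below 9000 and 2.27 from 9000 up, fitted apart, and neither was called. The Ion Proton difference was 1.35 (95% interval 0.20 to 2.49), and it was not called. Of the 24 aged CA3 libraries on the Ion Proton, 3 held at most 3 reads of Cyp2a3.

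**Figure D3:**
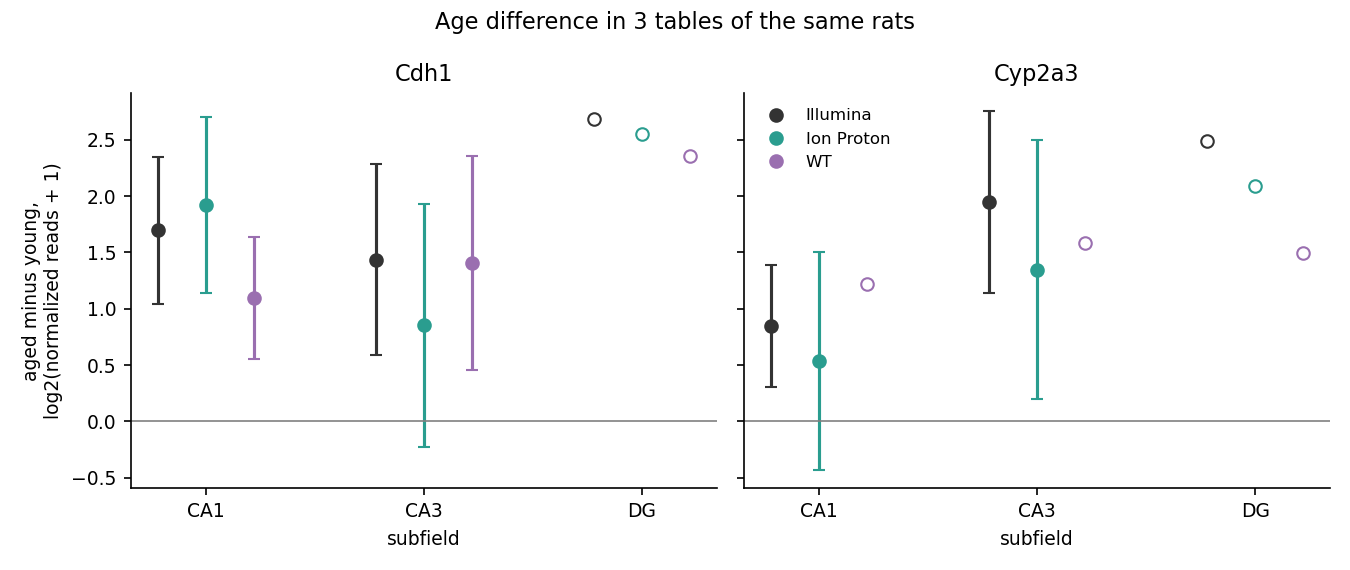
Log2 difference of aged minus young for Cdh1 and Cyp2a3 in each subfield and table; filled points carry the 95% interval of the limma fit, and open points are values without a test. All values are above 0, and in every table Cdh1 is highest in DG, at 2.68 in the Illumina table, while Cyp2a3 in the WT table is at 1.58 in CA3 and 1.49 in DG.

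Whether the age difference itself differed between CA1 and CA3 was tested as an interaction, without DG. For Cdh1 the CA1 difference minus that in CA3 was 0.26 (95% interval -0.81 to 1.34), and for Cyp2a3 it was -1.10 (95% interval -2.07 to -0.13), with limma adjusted p-values of 1.0 for both. Without R9876 the value for Cdh1 turned to -0.36. Limma called 0% of 14224 genes here, with 193 at an unadjusted p under 0.05, and edgeR and DESeq2 also called 0. Whether the DG rise exceeded that in the other subfields was not tested, since DG chose the genes.

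Memory class made no called difference in CA1 and CA3 of the aged rats. For AI minus AU the log2 difference of Cdh1 was 0.28 in CA1 (95% interval -0.43 to 0.99) and -0.16 in CA3 (-1.08 to 0.75). For Cyp2a3 it was -0.04 in CA1 (-0.63 to 0.54) and -0.33 in CA3 (-1.20 to 0.55). Together these intervals reach from -1.20 to 0.99, so the data allow differences of that size. Limma called 0% and 0% of genes in CA1 and CA3, with 858 and 250 genes at an unadjusted p under 0.05. EdgeR called 0 in each and DESeq2 called 2 in CA1 and 0 in CA3. In DG, whose rises in both classes chose the genes, the difference was 0.21 for Cdh1 and 0.05 for Cyp2a3, given without a test. The AI mean of Cdh1 in CA1 included R2231 at 223 normalized reads, and without it was 58.2 ± 11.7 (SD, n = 11).

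Over all 34 rats Cdh1 had its lowest mean in DG. The level was 53.1 ± 40.4 normalized reads (SD, n = 34) for CA1, 57.8 ± 97.0 for CA3 and 27.2 ± 17.2 for DG. Without R2175 it was 50.5 ± 37.8 (SD, n = 33) for CA1, and without R9876 it was 41.9 ± 29.4 (SD, n = 33) for CA3. CA1 and CA3 did not differ beyond the spread, with a log2 difference of 0.19 (95% interval -0.44 to 0.81, limma adjusted p = 0.681), or 0.25 without those libraries, where 35.4% of genes were called. CA1 minus DG was 1.04 and CA3 minus DG 0.85, and on the Ion Proton these were 1.02 and 0.71. Within rats, CA1 exceeded DG in 30 of 34, 9 of 10 young and 21 of 24 aged.

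Markers of the leptomeninges were also higher in CA1 than in DG. Of 18 tested, 16 were called higher in CA1 than in DG by limma, beside 29% of all genes, with a median log2 difference of 0.75. In CA3 against DG 6 were called higher, beside 28.9% of all genes, with a median of 0.43, a share near that of all genes. Their part in the subfield difference of Cdh1 was not tested.

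Cyp2a3 had its highest mean in DG when all 34 rats were pooled. The level was 12.8 ± 6.71 normalized reads (SD, n = 34) for CA1, 18.02 ± 15.8 for CA3 and 22.7 ± 15.7 for DG. The log2 difference of CA1 minus CA3 was -0.14 (95% interval -0.74 to 0.46, limma adjusted p = 0.76), or -0.18 without R9876 and R2175. CA1 minus DG was -0.44 and CA3 minus DG -0.30. DG was the highest of the 3 subfields in 14 of 24 aged and 2 of 10 young rats.

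The 4 libraries highest in Cdh1 were also high in leptomeningeal markers. The sum of the 20 markers was 37.9 times the CA3 median in R9876, with all of them above their level in all other CA3 libraries, and Cyp2a3 was 0 in that library. In CA1 it was 16.5 times the median in R2231 (Cdh1 223) and 10.3 times in R2175 (Cdh1 141), and in CA3 it was 3.85 times in R9862 (Cdh1 163). A high sum did not always go with high Cdh1. The CA1 libraries of R9870 and R9865 had sums of 24320 and 20664, larger than that of R9862 in CA3, with Cdh1 at 60.5 and 45.4. The sum of choroid plexus markers was 39.7 times the CA1 median in R2231, the fourth highest of CA1, 2.10 times in R2175, and 6.21 and 2.97 times the CA3 median in R9876 and R9862. Markers of perivascular macrophages were raised in the same libraries, at 14.2 times the median in R9876, 4.39 in R2231, 2.23 in R2175 and 2.49 in R9862. In R9876 the sums of pericyte, blood, endothelial and epithelial genes, at 5.11, 3.87, 2.75 and 1.93 times the median, were also the highest of CA3.

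With group means removed, Cdh1 and the leptomeningeal sum had a Pearson r of 0.662 over all Illumina libraries (34 rats in 3 subfields) and 0.381 without R9876 and R2175. Within subfields r was 0.614 in CA1, 0.851 in CA3 and 0.338 in DG, over 34 libraries each, and over 33 libraries it was 0.416 in CA1 without R2175 and 0.469 in CA3 without R9876. For the perivascular macrophage sum r was 0.545 over all libraries, or 0.274 without R9876 and R2175. It was 0.477 in CA1, 0.706 in CA3 and 0.237 in DG, or 0.326 in CA1 without R2175 and 0.267 in CA3 without R9876. Against pericytes and endothelium r was 0.441 and 0.308 over all libraries, or 0.124 and 0.078 without R9876 and R2175. Cyp2a3 ran the other way, with r of -0.353 against the leptomeninges, -0.485 against brain endothelium and -0.491 against pericytes and smooth muscle, or -0.170, -0.421 and -0.386 without R9876 and R2175. These are descriptions over libraries that share rats and size factors.

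**Figure D4:**
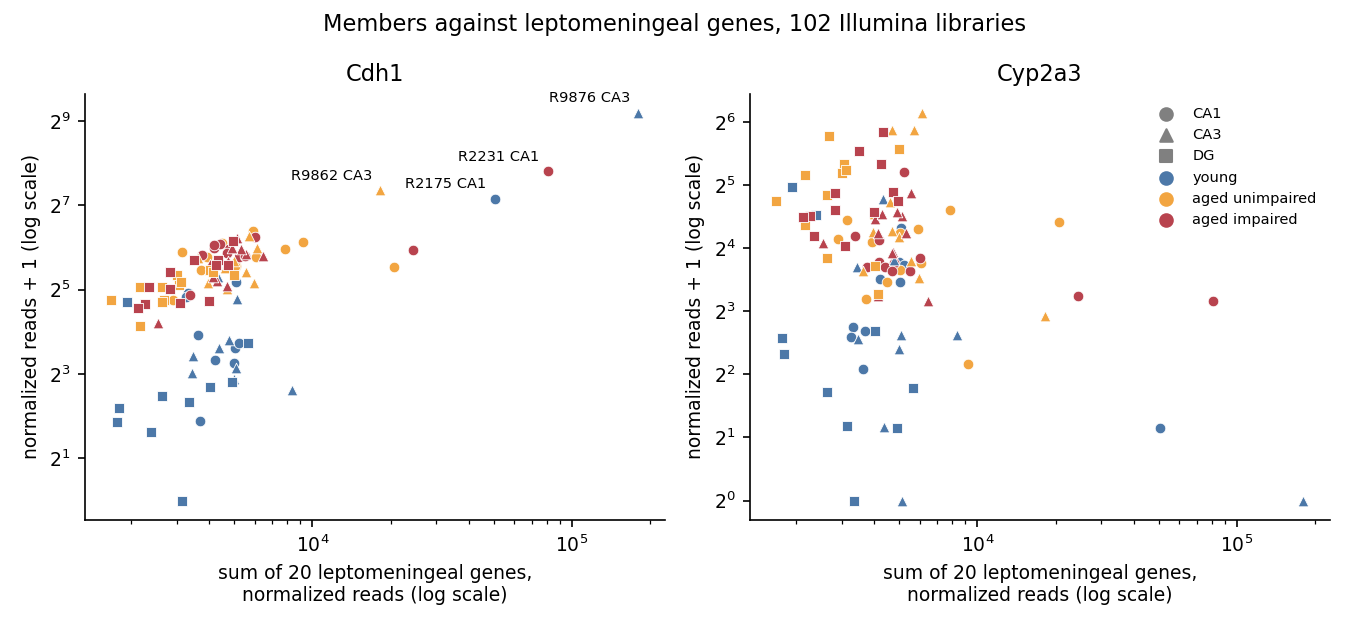
Cdh1 (left) and Cyp2a3 (right) in normalized reads + 1 against the sum of 20 leptomeningeal markers in normalized reads, both on log axes, for all Illumina libraries by subfield (shape) and group (color). The 3 libraries with the largest sums, up to 180079, are among the 4 highest in Cdh1, while 20 of 24 aged DG libraries lie above all young DG libraries in Cdh1.

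Leptomeningeal sums in DG overlapped between the age groups. They had a lowest, median and highest value of 1771, 2886 and 5634 in young, 1684, 2855 and 5003 in AU and 2126, 3301 and 4955 in AI rats, and 0 of 18 tested markers were called by limma (median log2 difference 0.08), beside 0.292% of all genes. In CA3 all 18 had log2 differences below 0, with a median of -0.47 and 0 called (0% of all genes), but without R9876 9 were below 0 and 9 above. The median of the CA3 sum was 4883 in young, 4849 in AU and 4711 in AI rats. In CA1 9 of the 18 were above 0 with all libraries and 17 without R2175 (median 0.25), and 0 were called with all libraries, beside 0.31% of all genes. Counts of 0 in lists of this length are near the background and are not read as a result.

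Genes of the class II list and some microglial markers were called higher with age in DG, where 0.292% of all genes were called. Of 7 tested genes of the list for MHC class II and dendritic cells, 5 were called higher by limma (median log2 difference 1.93), namely RT1-Db1, LOC688090, RT1-Ba, RT1-Da and Cd74, the invariant chain that chaperones class II molecules. The sum over the list had a median of 341 in young, 528 in AU and 898 in AI rats, and the ranges of 242 to 506 and 352 to 1907 overlapped between young and aged. Of 14 tested microglial markers 4 were called higher (median 0.25), namely Cx3cr1, Trem2, C1qa and C1qb. Of 10 tested astrocyte markers 1 was called higher by limma, Gfap (0.41), the intermediate filament of astrocytes. Among DG libraries with group means removed, Cdh1 had an r of 0.502 with the class II sum and 0.525 with the microglial sum, and Cyp2a3 had 0.123 and -0.069. The number series was not removed, and mean Cdh1 in aged DG was 27.7 below 9000 and 45.3 from 9000 up. How far the series enters these r values was not tested. For Cdh1, r with the class II sum was 0.429 in CA1 and 0.352 in CA3, and with the microglial sum 0.108 and 0.213. The largest relations of Cyp2a3 in DG over all the lists were 0.512 with the T cell sum, -0.439 with newborn neurons and dividing cells, -0.433 with pericytes and -0.431 with endothelium. The T cell sum had a median of 35.4 in young, 37.3 in AU and 31.5 in AI rats, and it was 2.72 times the DG median in R2221, a young library high in Cyp2a3. In CA3 Cyp2a3 had -0.627 with endothelium, -0.599 with pericytes, -0.573 with perivascular macrophages and 0.499 with ependyma. Without R9876 these were -0.526, -0.479, -0.439 and 0.498. Cdh1 in CA3 had 0.745 with other xenobiotic enzymes and 0.500 with T cells, or 0.327 and 0.317 without R9876. In CA1 Cyp2a3 had -0.456 with newborn neurons and dividing cells. Their part in the rise of either gene was not tested.

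In CA1, where 0.31% of all genes were called, the same 5 of 7 tested class II genes were called higher, at 1.64 to 2.04, as were 2 of 14 tested microglial markers, Trem2 (0.49) and Tyrobp (0.44). Choroid plexus markers had a median log2 difference of 0.93 in CA1, all 12 above 0 and 0 of 12 called by limma, a count near that background, and their sum ranged from 38.6 to 162592 in AI rats. Their part in the CA1 difference of Cdh1 was not tested.

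Among the lists of junction partners, regulators, epithelial genes and P450 and xenobiotic enzymes no gene was called for age, which for lists of this length is near the background (0.31% of all genes in CA1, 0% for CA3, 0.292% for DG) and is not read as a result about them. Of 18 listed junction partners of E-cadherin 14 were in the table and tested, and 0 were called by limma in any subfield, with median log2 differences of 0.03 in CA1, 0.02 in CA3 and 0.04 in DG. Beta-catenin (Ctnnb1), which binds the tail of E-cadherin, had a DG difference of -0.04. Alpha-catenin (Ctnna1), which links the complex to actin, had 0.10, and N-cadherin (Cdh2) had 0.04.

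Of the regulators of Cdh1, 0 of 11 tested were called by limma in any subfield, with a DG median of 0.03. Zeb2, a repressor of Cdh1 transcription, had a DG difference of -0.02. Adam10, which sheds the outer part of E-cadherin, had 0.03. Of the epithelial genes, 0 of 11 tested in DG were called (median -0.09), and the most abundant, Dsp of the desmosome, Perp and Ocln, had 0.21, 0.04 and 0.03.

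For the Cyp2 family of P450 genes, 33 were listed, 30 were in the table and 9 were abundant enough to be tested in DG, of which 0 were called by limma (median 0.03, range -0.02 to 0.31). The most abundant, Cyp2d4, Cyp2j10 and Cyp2u1, had DG differences of 0.03, 0.01 and 0.03. Of the redox partners and regulators 0 of 12 were called in any subfield, with 0.00 in DG for Por, -0.06 for Cyb5b, an electron carrier, and 0.01 for Hnrnpa1. Of the other xenobiotic enzymes 0 of 13 were called in any subfield, and the glutathione transferases Gstm1, Gstp1 and Gsta1 had DG differences of 0.04, 0.15 and 0.16.

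Neighboring genes were taken by name from RefSeq (GRCr8). Cdh3, which encodes P-cadherin beside Cdh1, had a difference of 0.94 in CA1, -0.32 in CA3 and 0.21 in DG, none of them called by limma. Tango6 on the other side had 0.02 in DG. Cyp2g1 near Cyp2a3 had at most 3 reads in all but 1 library. A long noncoding RNA, LOC103691073, overlaps Cyp2a3 in that annotation, and since counting by strand is not known its reads cannot be told apart from those of Cyp2a3. Sharing of reads with close P450 relatives was not measured, and any such reads would make the value of Cyp2a3 less certain.

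The genes whose levels were most like each member were sought over all Illumina libraries with group means removed. For Cdh1 they were Ptgds (r = 0.701), Lyc2 (0.676), Lgals1 (0.667), Ch25h (0.663) and Slc13a3 (0.651), and in the Ion Proton table their r was 0.471, 0.447, 0.229, 0.369 and 0.359. Ptgds, which makes prostaglandin D, is on the leptomeningeal list. Without R9876 and R2175 the order changed, to Lcp1 (0.500), Gipr (0.474) and Ptgds (0.451). For Cyp2a3 they were LOC502894 (0.618), Pcdh20 (0.588), Gpr155 (0.581), Napa (0.575) and Epn2 (0.569), and on the Ion Proton their r was 0.126, 0.244, 0.235, 0.523 and 0.336. Cdh1 and Cyp2a3 had an r of -0.157 with each other, or 0.102 without the same libraries, and within subfields it was -0.386 in CA1, -0.321 in CA3 and 0.296 in DG. Over the 34 DG libraries alone the genes most like Cdh1 were Cd320 (0.666), Ptafr (0.637), RGD1305645 (0.629), Ftl1 (0.624) and Pld4 (0.617), none of the 5 above, with an r of -0.030, 0.126, 0.109, -0.015 and 0.335 in the Ion Proton table. These DG genes were named after their values were seen.

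Relations of level across the 24 aged rats were also examined, with p-values adjusted over 9 relations (Cdh1 against Cyp2a3 within each subfield and each gene between subfields). Of the 4 that do not involve DG, 0 passed a permutation test after Benjamini-Hochberg adjustment. The smallest p of these was for Cyp2a3 in CA1 against CA3, with r = 0.409 (permutation p = 0.0474, adjusted 0.426) and rho = 0.272 (permutation p = 0.198, adjusted 0.429). Its r was 0.270 without the 2 farthest rats, 0.392 below 9000 and 0.580 from 9000 up. In DG, given as a description, Cdh1 against Cyp2a3 had a Pearson r of 0.163 and a Spearman rho of 0.324. Without the 2 rats farthest from the median of Cdh1 r was 0.290, and within the number series it was -0.167 and -0.0079.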

How the data were processed

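The deposited values were gene counts that the authors had divided by a size factor for each library (a normalized signal). Per the labels and the study's methods, Illumina reads were demultiplexed with bcl2fastq 2.17, trimmed with cutadapt 1.8.3, aligned to rn5 with STAR 2.5, counted with featureCounts 1.4.4 and scaled with DESeq2 1.16.1, the versions being those in the submitters' processing notes. Ion Proton reads were aligned with TopHat2 and Bowtie2. The library type and aligner of the WT table are not given in the sources used here. The labels and the methods name different TruSeq kits, so counting by strand is not known. Whole reads were recovered for 100.0% of values (within 0.05 read). Depth was 3.25 to 42.8 M reads on Illumina, 4.47 to 21.4 M on Ion Proton and 3.54 to 20.6 M in the WT table, and a value of a few reads is uncertain by counting alone.

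Genes with a mean of at least 10 were tested within a table with limma 3.58.1, run in R 4.3.3, on the log2 of the value plus 1, a variance trend and Benjamini-Hochberg adjustment over all of them. Over all rats Cyp2a3 met that mean in CA1 and CA3 only through its aged libraries (Illumina young means 8.5 and 7.23), so its age tests there are read with that limit. Age was tested as the mean of AU and AI against young within CA1 and CA3, and CA1 against CA3 over all libraries of the table. Contrasts with DG were fitted in the same way but are given without a test, since DG chose the genes. On recovered reads, edgeR 4.0.16 called 23 genes for age in CA1 and 36 in DG, and DESeq2 1.42.0 called 57 and 63, against 44 and 41 by limma. DESeq2 was run with its default handling of outlying counts, which can replace an extreme count. The scripts were tested on simulated data. Relations used 100000 permutations. The 3 libraries of a rat come from the same animal, which pairs the subfields; the correlation of a rat's libraries was 0.149 in the subfield fit. Promoters came from the RefSeq table for GRCr8.

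The genes described, the 6 lists by role, the 19 marker lists and the alternatives were chosen with earlier results of these data known. Named genes were both members, the next 4 by DG rise, the 5 most like each member, called genes of a list (at most 5) or else its 3 most abundant, and Cyp2a1 and Cyp2a2. Of the marker lists, genes are printed where they were called for age, and sums, counts and relations are given for some of the lists. Cyp2a2 was not analysed here. Other genes (Arl11, the neighbors of the members, Lcp1, Gipr and those most like Cdh1 in DG) were named after their values were seen. 1 of the abundant genes of the regulator list is not reported here. The maze scores were not used here. The labels give separate rats as replicates.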

Additional observations from a re-analysis of the deposited data

Results flagged for a closer look

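In 18 groups of 10 young libraries (each gene, subfield and table), the highest or lowest library was set against its neighbors, and 10 groups held a library whose gap exceeded 0.466 of the range. For normally distributed values chance alone gives about 1 in 20 such groups, but these are low, skewed values whose own rate was not measured, and the tables share the same RNA. In every case it was the highest library. The DG values chose the genes, and R9876 in CA3 and R2175 in CA1 were already known to stand apart, so these gaps are a description and not a test.

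For Cdh1 in CA1 it was R2175, with 141 normalized reads on Illumina, 139.9 on Ion Proton and 91.1 in the WT table, where the next young libraries had 35.2, 53.1 and 36.2. For Cdh1 in CA3 it was R9876, with 582, 577 and 352, where the next had 38.5, 57.5 and 34.4. The leptomeningeal sums of these libraries are given with the results, and their part was not tested.

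R9780 was the highest young library in the other 4 of these groups. Its Cdh1 was 25.2 in DG on Illumina (next 12.3), but in the WT table it was 9.73, below the highest young library (11.8), and in the other groups of Cdh1 its gap was not of this size. Its Cyp2a3 was 26.5 in CA3 on Illumina (next 13.0), 10.4 in CA3 in the WT table (next 4.85) and 26.6 in DG on Ion Proton (next 12.0).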

How the results depend on the processing

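For the 12 tested results, none of which uses DG, 21 settings gave 238 values, of which 192 kept their direction and side of the threshold, 29 changed sign, 5 lost and 12 gained a call. The WT table gave no fit for Cyp2a3, whose mean was under the filter. Where a value changed, the cause was not tested unless fewer rats were fitted.

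The DG differences kept their sign in every setting, and leaving out each rat in turn gave 2.41 to 2.93 for Cdh1 and 2.23 to 2.78 for Cyp2a3. Cdh1 in CA1 lost its call in the Ion Proton (1.92) and WT (1.10) tables, below 9000 (1.37, or 2.02 without R2175) and with edgeR (1.08). Cyp2a3 in CA1 gained one below 9000 (1.56, or 1.29 without R2175).

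Cdh1 in CA3 gained a call without R9876 and R2175 (1.99), without those and R2231 and R9862 (1.92), below 9000 (2.498), with DESeq2 (1.64) and with edgeR without R9876 (1.802), and turned to -0.39 with edgeR on all libraries. Leaving out each rat gave 1.26 to 1.99, called only without R9876. Cyp2a3 in CA3 gained a call without the 7 deepest rats (2.65), with the number series as a covariate (1.91) and without R9780 (2.21), and leaving out each rat gave 1.68 to 2.21.

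AI minus AU stayed uncalled in CA1 and CA3 in these settings, but its sign was not stable. It turned to -0.17 from 9000 up for Cdh1 in CA1, and to 0.13 (WT) and 0.28 (below 9000) for Cdh1 in CA3. For Cyp2a3 in CA1 it became 0.064 (quantile normalization), 0.52 (Ion Proton), 0.080 (without libraries nearer another subfield), 0.0025 (covariate), 0.21 (from 9000 up) and 0.020 (without 4 libraries), with -0.20 to 0.025 on leaving out each rat. For Cyp2a3 in CA3 it became 0.36 (Ion Proton). For Cyp2a3 in DG, without a test, it became -0.014 (quantile), -0.37 (Ion Proton), -0.17 (without libraries nearer another subfield), -0.32 (below 9000), -0.078 (edgeR) and -0.047 (DESeq2), with -0.089 to 0.14 on leaving out each rat.

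Between subfields, Cdh1 CA1 minus CA3 turned to -0.32 from 9000 up (-0.077 without R9876) and -0.12 with edgeR and -0.12 with DESeq2. Cyp2a3 CA1 minus CA3 became 0.030 at a pseudocount of 0.1, 0.0098 without the deepest rats, 0.60 from 9000 up (0.38 without R9876) and a called -0.79 below 9000. The differences from DG, described without a test, ranged over these settings from 0.56 to 1.46 for Cdh1 CA1 minus DG, 0.58 to 1.09 for Cdh1 CA3 minus DG and -0.85 to -0.22 for Cyp2a3 CA1 minus DG, and Cyp2a3 CA3 minus DG was -0.82 from 9000 up and 0.15 below 9000. The age difference of Cdh1 in CA1 minus that in CA3 became -0.31 (WT), -1.13 (below 9000, or -0.48 without R2175), -0.51 (DESeq2) and -0.051 (edgeR without R9876 and R2175), with -0.36 to 0.74 on leaving out each rat, below 0 only without R9876. With the rat as a replicate block, CA1 minus CA3 of Cdh1 was 0.19 (limma adjusted p = 0.62), and the block changed no call. The settings without R9780, without 4 libraries, those that leave out R2175 in CA1 or R9876 in CA3 for lists and levels, and those that combine a setting with leaving out R9876 and R2175 were chosen after seeing the data. The r of Cdh1 against Cyp2a3 in DG across aged rats changed sign within the number series, to -0.167 and -0.0079.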
